A study of Mus musculus with 4 samples.

Results

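Hypoxia-induced genes were examined as a set of 10 genes: Hif1a, Car9, Ndrg1, Bnip3, Adm, Egln1, Egln3, Ankrd37, P4ha1 and Slc16a3. They were picked by gene symbol out of the 56691 genes of the deposited table, by a rule that uses names and no expression value. The list itself was chosen with earlier results of these data known. RNA was sequenced from 4 sarcomas, of which ATO 1 and ATO 2 came from treated mice (n = 2) and Ctl 1 and Ctl 2 from control mice (n = 2), to compare the transcriptome with and without arsenic trioxide (ATO), a compound studied as a rescuer of mutant p53. All 4 tumors arose in heterozygous W/+ mice of the C57BL/6N strain, which carry a CRISPR/Cas9 knock-in of p53 R279W on one allele, written as R282W by its human number in the labels. The treated mice drank water with 35 mg ATO in 1 L from day 90 after birth until death, and the labels give PBS as the treatment of the Ctl group. The age of each mouse and the type of each sarcoma are not given in the sources used here, and W/+ mice can develop sarcomas of several types. The labels also carry a growth protocol for cultured cells, the same for all 4 samples, whose agents are those used to turn cultured cells into adipocytes.

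Cells sense oxygen through the hypoxia-inducible factors (HIFs). The HIF-1 alpha protein, encoded by Hif1a, is made continuously, and in the presence of oxygen the prolyl hydroxylases of the Egln family mark it for destruction through the von Hippel-Lindau protein. When oxygen falls, the protein persists, pairs with ARNT and binds hypoxia response elements near genes of glycolysis, pH control, matrix synthesis, mitophagy and blood vessel tone. Hif1a is controlled mainly at the protein level, so its mRNA is not a readout of HIF activity, whereas mRNAs such as those of Ankrd37, Egln3 and Car9 are widely used as one. Solid tumors, sarcomas among them, can outgrow their vessels and hold hypoxic regions.

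The core of the hypoxia response element is the letters ACGTG or GCGTG. They were searched on both strands in the 250 bases before the RefSeq transcription start, where a promoter sequence was at hand for 9 of the 10 genes (Ndrg1 had none). At least 1 of the 2 cores was found in 9 of these 9 promoters, against 38.6% of all 32851 promoters of the same length. ACGTG was found in 8 of 9, against 16.6% of all promoters, and GCGTG in 5 of 9, against 28.2%. ACGTG is also the inner part of CACGTG, the E-box bound by other factors, which occurred once each in the Bnip3 and Hif1a promoters. The genes were listed by name as hypoxia-induced, so a higher share than in all promoters may follow from that choice and is no independent result. Cores this short occur often in promoters rich in G and C, for which the set of all promoters was not matched. A match does not show that a factor binds there. The promoters of Ankrd37, Adm and Egln3, which differed most between the Ctl sarcomas after Ndrg1 is set aside, of Bnip3, which was higher in both ATO sarcomas, and of P4ha1, which was lower in both by FPKM, are shown 5′ to 3′ on the strand of the gene. Capitals mark the cores as read on this strand, so that CACGT and CACGC are cores on the opposite strand.
Ankrd37: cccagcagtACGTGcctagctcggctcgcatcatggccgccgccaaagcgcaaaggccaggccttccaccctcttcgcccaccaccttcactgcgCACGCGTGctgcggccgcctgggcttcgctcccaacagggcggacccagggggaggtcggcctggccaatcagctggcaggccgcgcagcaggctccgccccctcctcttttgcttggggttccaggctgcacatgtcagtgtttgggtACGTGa
Egln3: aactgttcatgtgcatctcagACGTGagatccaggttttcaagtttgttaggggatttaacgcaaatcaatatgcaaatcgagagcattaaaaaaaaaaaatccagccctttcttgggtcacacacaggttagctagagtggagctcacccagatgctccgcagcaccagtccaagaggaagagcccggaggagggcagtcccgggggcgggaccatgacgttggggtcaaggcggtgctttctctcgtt
Adm: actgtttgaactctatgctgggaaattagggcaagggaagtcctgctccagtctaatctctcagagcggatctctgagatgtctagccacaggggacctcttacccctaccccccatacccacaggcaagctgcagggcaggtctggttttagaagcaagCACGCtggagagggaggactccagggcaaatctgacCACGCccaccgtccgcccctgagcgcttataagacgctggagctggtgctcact
Bnip3: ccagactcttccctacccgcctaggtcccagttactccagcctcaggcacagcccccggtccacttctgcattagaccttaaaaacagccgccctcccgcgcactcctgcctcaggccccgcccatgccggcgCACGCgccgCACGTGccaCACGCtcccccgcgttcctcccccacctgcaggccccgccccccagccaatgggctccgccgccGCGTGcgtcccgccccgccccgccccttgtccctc
P4ha1: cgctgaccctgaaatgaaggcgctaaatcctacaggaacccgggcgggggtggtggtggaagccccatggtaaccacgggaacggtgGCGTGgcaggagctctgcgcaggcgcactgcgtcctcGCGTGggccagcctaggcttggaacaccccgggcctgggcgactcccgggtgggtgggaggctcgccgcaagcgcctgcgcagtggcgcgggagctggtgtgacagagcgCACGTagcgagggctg

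The Ankrd37 stretch lies at chr8:45999851-46000100 of GRCm38 on the minus strand, and one of its cores ends 2 bases before the RefSeq transcription start. The gene reaches to 46005707 in GENCODE M21, so this stretch lies inside the gene as annotated there. In the Ankrd37 stretch, the capitals CACGCGTG hold 2 GCGTG matches that overlap on opposite strands. The other stretches lie at chr12:54203875-54204124 (Egln3, minus strand), chr7:110627407-110627656 (Adm, plus strand), chr7:138909507-138909756 (Bnip3, minus strand) and chr10:59323046-59323295 (P4ha1, plus strand). In GENCODE M21, the last 17 bases of the Ankrd37 stretch and 13 bases of the Bnip3 stretch are annotated as exon of the same gene, and the other 3 stretches contain no annotated exon. P4ha1 has its nearest core 12 to 16 bases before the start, and Bnip3 has 5 core matches between 31 and 117 bases before it.

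Libraries held between 15259695 and 18134000 counts. Mitochondrial genes took 14.7% of the counts of ATO 2, against 1.98% to 2.59% elsewhere. Among markers of mesenchymal cells, the lineage of sarcomas, Vim was read at an FPKM between 130.51 and 811.64 and Col1a1 between 273.32 and 2413.42. Summed over 6 mesenchymal markers, FPKM ran from 835 in ATO 2 to 3932 in ATO 1. Vim, Pdgfrb and Thy1, 3 of the 6, were lower in both ATO sarcomas than in either Ctl sarcoma by FPKM. Over all genes tested, 29.6% were lower in this way. Thy1 had 114.15 and 100.55 FPKM in Ctl against 3.66 and 34.46 in ATO, and Pdgfrb 98.6 and 70.79 against 36.17 and 23.72. Col1a1, Col1a2 and Pdgfra overlapped between the groups. The sarcomas differed in markers of other cell types. The summed FPKM of 8 skeletal muscle markers was 7.21 in Ctl 1 and 150.35 in Ctl 2, against 17482.62 in ATO 1 and 1158.08 in ATO 2. For 6 adipocyte markers it was 12.74 and 66.96 in Ctl, against 232.86 in ATO 1 and 1384.19 in ATO 2, and Lep and Plin1 had no count in Ctl 1. Fabp4 made up nearly all of the Ctl sums, at 12.63 and 66.1 FPKM, against 154.8 in ATO 1 and 809.09 in ATO 2. Adipoq had 0.08 FPKM in both Ctl sarcomas, against 38.89 in ATO 1 and 190.62 in ATO 2. Thus each of the 8 muscle and 6 adipocyte markers was higher in ATO 1 and ATO 2 than in either Ctl sarcoma. By FPKM, 12.8% of all genes tested were higher in both ATO sarcomas in this way. The 6 endothelial markers were all highest in Ctl 2, where they summed to 946 FPKM against 77.9 to 157 in the others. Summed over 6 erythroid markers, FPKM was 19842.89 in Ctl 2, 11011.49 in ATO 1, 1127.52 in ATO 2 and 298.19 in Ctl 1. Osteoblast markers summed to 488 FPKM in ATO 1 and to between 4.93 and 13.01 elsewhere. Of these markers, Sp7, which defines the lineage, was at 0 in Ctl 1 and ATO 2. Runx2 differed from Sp7, as Ctl 1 (10.19 FPKM) came near ATO 1 (13.12 FPKM). Runx2 gave most of the Ctl 1 sum, and the remaining sarcomas had between 1.01 and 2.92 FPKM of it. Leukocyte markers summed to between 161 and 458 FPKM, and epithelial markers to between 1.05 and 20.17 FPKM. The part of these cell types in the values given below was not tested, and in whole tumors fewer cells that express a gene cannot be told apart from less RNA per cell.

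**Figure D1:**
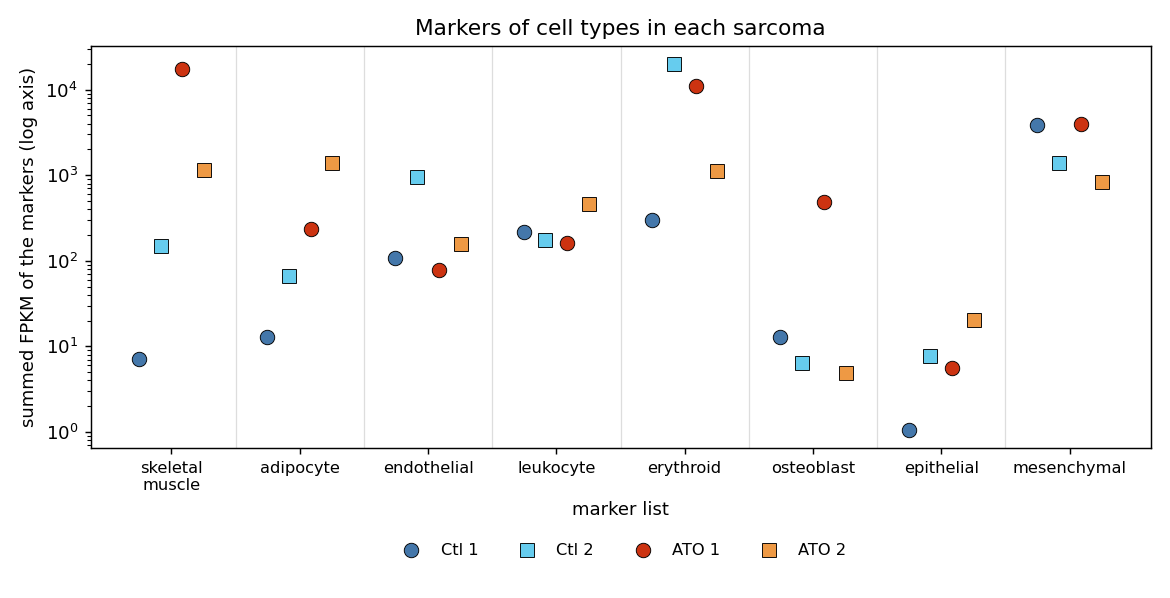
Summed FPKM (log axis) of the markers of 8 cell types in each of the 4 sarcomas, one symbol per sarcoma and no error bars. Muscle markers reach 17482.62 in ATO 1, adipocyte markers 1384.19 in ATO 2, and endothelial markers 946 in Ctl 2.

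All 10 hypoxia-induced genes passed the filter on low counts. By edgeR's quasi-likelihood test on the counts, 0 of the 10 passed a Benjamini-Hochberg adjusted p of 0.05 over the 17188 genes tested, as did 0% of all genes. Bnip3 had an unadjusted p under 0.05 (8.51% of all genes), and by DESeq2 0 of the 10 passed as well, where 4.13% of genes did, as by edgeR without the filter, where 1.75% of genes did. Fitted levels were higher in ATO for 3 genes (Bnip3, Egln1 and Adm, the last reversed when only total counts were used for scaling) and lower for 7, while 49.2% of all genes were higher and 50.8% lower. The median log2 fold change of the 10 genes was -0.72, against -0.016 over all genes tested. This median rested on Ctl 2. Without Ctl 2 it was 0.44 with 6 of 10 genes higher, where 55.3% of all genes were higher, and with any other sarcoma left out it stayed between -1.07 and -0.39. Left out in turn, Ctl 1, ATO 1 and ATO 2 gave 2, 2 and 3 higher genes, with 53.5%, 43.8% and 45.8% of all genes higher. By CPM normalized with TMM factors (the scale of the test), the ATO group was wholly above the Ctl group in 1 gene (Bnip3), against 19.7% of all genes. It was wholly below in 3 genes (Car9, Ndrg1 and P4ha1), against 20.2%. With the size factors of DESeq2 in place of TMM, 1 gene was above (20.4% of all genes) and 2 were below (19.4%), as P4ha1 overlapped. By FPKM, which is scaled to the total count alone, these numbers were 1 (12.8% of all genes) and 5 (29.6%), as Hif1a and Slc16a3 joined those below.

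**Figure D2:**
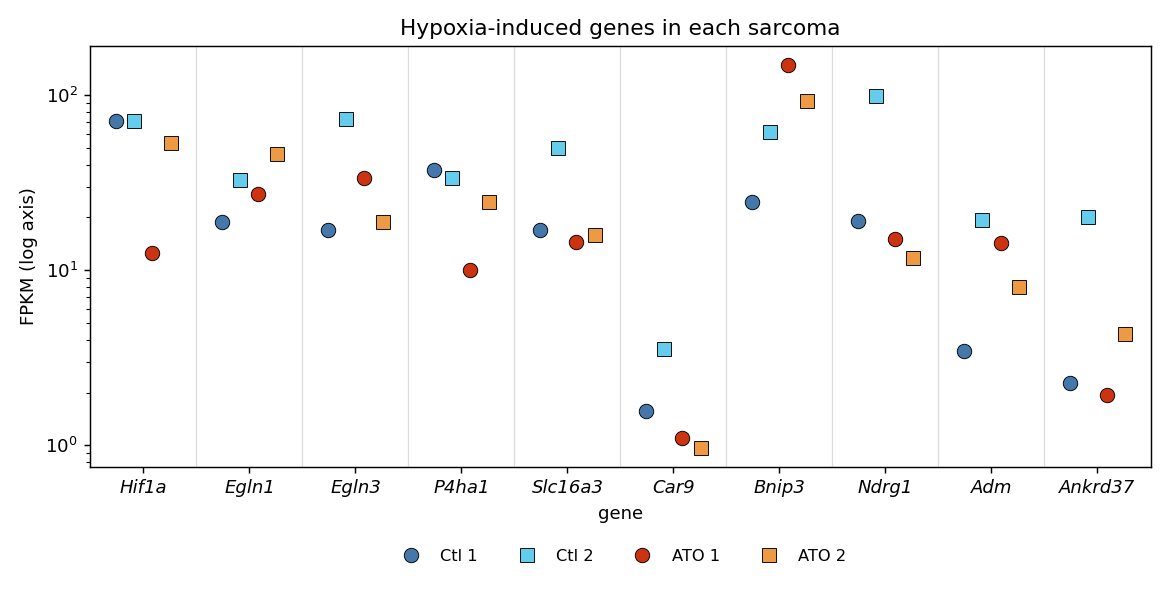
FPKM (log axis) of the 10 hypoxia-induced genes in each sarcoma, with circles for replicate 1 and squares for replicate 2. Ctl 2 is the highest of the 4 sarcomas for Egln3, Slc16a3, Car9, Ndrg1, Adm and Ankrd37, while Bnip3 is highest in ATO 1 at 148.03.

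Hif1a (ENSMUSG00000021109; chromosome 12 of GRCm38, 73901375 to 73947530) encodes the oxygen-labile subunit of HIF-1. Its FPKM was 71.06 in Ctl 1 and 70.63 in Ctl 2, against 12.45 in ATO 1 and 53.22 in ATO 2. The Ctl sarcomas were nearly equal, and ATO 1 stood alone at the low end. After TMM normalization the level was 381 ± 5.49 CPM (SD, n = 2) in Ctl, 73.1 CPM in ATO 1 and 384 CPM in ATO 2, so that ATO 2 lay between the Ctl sarcomas on this scale. The log2 fold change was -0.74 (SE 0.86, adjusted p 0.838 by edgeR), and it was -0.0064 without ATO 1 and -2.37 without ATO 2. Within the ATO group Hif1a differed 5.25-fold, a larger difference than that of 93.7% of all genes tested. ATO 1 was also the sarcoma with the highest muscle and osteoblast markers.

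Egln1 (ENSMUSG00000031987; chromosome 8, 124908587 to 124949324) encodes PHD2, the main hydroxylase that marks HIF-1 alpha in normal oxygen. The gene had FPKM values of 18.74 and 32.74 in the Ctl sarcomas, overlapping the 27.1 and 46.24 of the ATO sarcomas. For Egln1 the log2 fold change was 0.83 (SE 0.56, adjusted p 0.711 by edgeR), and it stayed between 0.21 and 1.27 with each sarcoma left out. Egln3 (ENSMUSG00000035105; chromosome 12, 54178981 to 54203860) encodes PHD3, a hydroxylase strongly induced by HIF that damps the response. It was read at 17.01 FPKM in Ctl 1 and 72.72 FPKM in Ctl 2, against 33.48 in ATO 1 and 18.93 in ATO 2. Ctl 1 and Ctl 2 thus formed the low and the high end, with both ATO sarcomas between them. ATO differed from Ctl in Egln3 by a log2 fold change of -0.53 (SE 0.76, adjusted p 0.870 by edgeR), turning to 0.85 without Ctl 2. Within a sarcoma the ratio of Egln3 to Egln1, which does not depend on library scaling, was 0.908 in Ctl 1 and 2.22 in Ctl 2, against 1.24 in ATO 1 and 0.409 in ATO 2. The ratio of Egln1 to Hif1a was 0.264 and 0.464 in Ctl against 2.18 and 0.869 in ATO, while that of Egln3 to Hif1a overlapped, at 0.239 and 1.03 in Ctl against 2.69 and 0.356 in ATO. Of 13 such ratios between named genes that were computed, 6 set the groups apart and 7 overlapped, and with 2 sarcomas a group none was tested. A random order of 4 sarcomas sets the groups apart with probability 0.333, and several of the ratios share a gene. Egln2, the third hydroxylase, varied least of the family, with an FPKM between 16.01 and 24.68.

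A further group of genes encodes proteins of metabolism, pH and matrix. Slc16a3 (ENSMUSG00000025161; chromosome 11, 120948480 to 120960868) encodes MCT4, which exports lactate from glycolytic cells. Its FPKM was 17.03 in Ctl 1 and 49.66 in Ctl 2, against 14.4 in ATO 1 and 15.82 in ATO 2. Only Ctl 2 stood apart, and the other 3 sarcomas lay close together. The log2 fold change was -0.85 (SE 0.63, adjusted p 0.735 by edgeR), and 0.10 without Ctl 2. Slc16a1, which encodes the related transporter MCT1, had FPKM values of 17.83 and 6.4 in Ctl against 24.48 and 49.79 in ATO, and the log2 ratio of ATO to Ctl was 1.94 (SE 0.76, adjusted p 0.585 by edgeR). The ratio of Slc16a3 to Slc16a1 was therefore 7.76 in Ctl 2 and between 0.318 and 0.955 in the other sarcomas. Bsg, the chaperone that both transporters need at the membrane, had FPKM values of 184.71 and 198.22 in Ctl against 218.27 and 260.21 in ATO.

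Car9 (ENSMUSG00000028463; chromosome 4, 43506966 to 43513729), a membrane carbonic anhydrase that acidifies the space around hypoxic cells, was the lowest of the 10 genes by FPKM in each sarcoma. It had 63 counts in Ctl 1 and 147 in Ctl 2, against 46 in ATO 1 and 34 in ATO 2, or FPKM values of 1.57, 3.55, 1.1 and 0.97. Both ATO sarcomas lay below both Ctl sarcomas, though the gap to Ctl 1 was smaller than that between Ctl 1 and Ctl 2. Its log2 fold change was -1.03 (SE 0.72, adjusted p 0.720 by edgeR), and -0.34 without Ctl 2. An antisense gene, Gm12454, overlaps Car9 and held between 16 and 66 counts, and since no source used here states whether counting used strand, reads of the pair cannot be told apart.

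P4ha1 (ENSMUSG00000019916; chromosome 10, 59323296 to 59373304) encodes a catalytic subunit of the enzyme that hydroxylates prolines of collagen. FPKM was 37.19 and 33.69 in Ctl, 9.97 in ATO 1 and 24.51 in ATO 2. ATO 1 was low, while by TMM-normalized CPM ATO 2 (123 CPM) nearly met Ctl 2 (126 CPM). In P4ha1 the log2 fold change was -0.70 (SE 0.62, adjusted p 0.787 by edgeR), and -0.13 without ATO 1. The related subunit P4ha2 was lower in both ATO sarcomas, at 4.99 and 6.2 FPKM against 14.1 and 18.1 in Ctl, and the log2 ratio of ATO to Ctl was -1.23 (SE 0.42, adjusted p 0.570 by edgeR). P4hb, the beta subunit they share, had 530.28 and 317.21 FPKM in Ctl and 191.84 and 148.17 in ATO. The third alpha subunit gene, P4ha3, did not separate the groups, with 11.65 and 3.09 FPKM in Ctl and 1.41 and 7.84 in ATO.

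Bnip3 (ENSMUSG00000078566; chromosome 7, 138890836 to 138909519) encodes a protein of the outer mitochondrial membrane that directs mitochondria to autophagy. It was the gene among the 10 in which the groups were farthest apart relative to their spread. Its FPKM was 24.39 in Ctl 1 and 61.34 in Ctl 2, against 148.03 in ATO 1 and 92.76 in ATO 2. ATO 1 and ATO 2 exceeded each Ctl sarcoma with TMM, with FPKM and with the size factors of DESeq2. The level was 88.3 ± 53.1 CPM (SD, n = 2) in Ctl and 295 ± 54.5 CPM (SD, n = 2) in ATO, and the log2 ratio of ATO to Ctl was 1.74 (SE 0.61, 95% confidence interval 0.15 to 3.34). With an unadjusted edgeR p of 0.0380 and an adjusted p of 0.570 it did not pass, and the log2 fold change stayed between 1.23 and 2.54 with each sarcoma left out. Bnip3l, its paralog with a like role in mitophagy, did not follow it, with FPKM values of 27.63, 91.49, 60.73 and 35.03 in Ctl 1, Ctl 2, ATO 1 and ATO 2. The ratio of Bnip3 to Bnip3l was 0.883 and 0.670 in Ctl against 2.44 and 2.65 in ATO. Beside these values, muscle and adipocyte markers were higher in both ATO sarcomas as well, and their part in the Bnip3 level was not tested. A pseudogene, Gm18258, lies on the opposite strand within Bnip3 and held between 4 and 27 counts, against 965 to 6080 for Bnip3.

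Ndrg1 (ENSMUSG00000005125; chromosome 15, 66929318 to 66969640), a stress-responsive gene linked to differentiation and restraint of metastasis, had the most negative fold change. Its FPKM was 18.95 in Ctl 1 and 98.5 in Ctl 2, against 15.04 in ATO 1 and 11.78 in ATO 2. Ctl 2 stood far above the other 3, among which Ctl 1 was only slightly above the ATO sarcomas. The level was 352 ± 335 CPM (SD, n = 2) in Ctl and 96.9 ± 2.68 CPM (SD, n = 2) in ATO, and the log2 ratio of ATO to Ctl was -1.86 (SE 0.87, adjusted p 0.617 by edgeR). Without Ctl 2 the log2 fold change was -0.25.

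Adm (ENSMUSG00000030790; chromosome 7, 110627661 to 110629820) encodes adrenomedullin, a peptide that widens vessels and acts on endothelial cells. FPKM was 3.47 in Ctl 1 and 19.32 in Ctl 2, against 14.31 in ATO 1 and 7.97 in ATO 2. As for Egln3, the ATO sarcomas lay between the Ctl sarcomas, and both genes ran from Ctl 2 through ATO 1 and ATO 2 down to Ctl 1 by CPM, an order found in 3.88% of all genes. Adm had a log2 fold change of 0.22 (SE 0.88, adjusted p 0.961 by edgeR), which ranged from -0.54 when Ctl 1 was left out to 1.91 when Ctl 2 was. Its receptor is formed by Calcrl with Ramp2 or Ramp3. Calcrl had 5.86 and 50.01 FPKM in Ctl and 6.52 and 12.38 in ATO, and Ramp2 had 4.7 and 46.52 in Ctl and 6.1 and 12.82 in ATO. Adm, Calcrl, Ramp2 and Ramp3 were all highest in Ctl 2, which also had the highest endothelial markers, and the part of endothelial cells was not tested. Ramp1, whose product pairs with Calcrl to form a receptor for a related peptide, had 1.82 and 1.6 FPKM in Ctl and 5.68 and 1.39 in ATO (log2 fold change 1.24, SE 0.78, adjusted p 0.695 by edgeR). Ramp3 had 6.76 and 21.93 FPKM in Ctl and 2.12 and 1.71 in ATO, and the log2 ratio of ATO to Ctl was -2.63 (SE 0.77, adjusted p 0.570 by edgeR).

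Ankrd37 (ENSMUSG00000050914; chromosome 8, 45996902 to 46005707), a small ankyrin repeat gene known as a HIF target, varied most of all 10 genes. It had 61 counts in Ctl 1 and 554 in Ctl 2, against 54 in ATO 1 and 101 in ATO 2, or FPKM values of 2.27, 20.03, 1.93 and 4.3. Ctl 2 exceeded Ctl 1 by 8.70-fold in CPM, while Ctl 1 and ATO 1 were close. Ankrd37 had a log2 fold change of -1.50 (SE 1.18, adjusted p 0.752 by edgeR), and 0.78 without Ctl 2. Ufsp2 overlaps Ankrd37 on the opposite strand, and its counts (1012 in Ctl 1 and 1014 in Ctl 2, against 690 in ATO 1 and 557 in ATO 2) did not follow the order of Ankrd37, though reads of the overlap cannot be told apart without strand. Lrp2bp, a second opposite-strand neighbor, held between 6 and 46 counts.

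**Figure D3:**
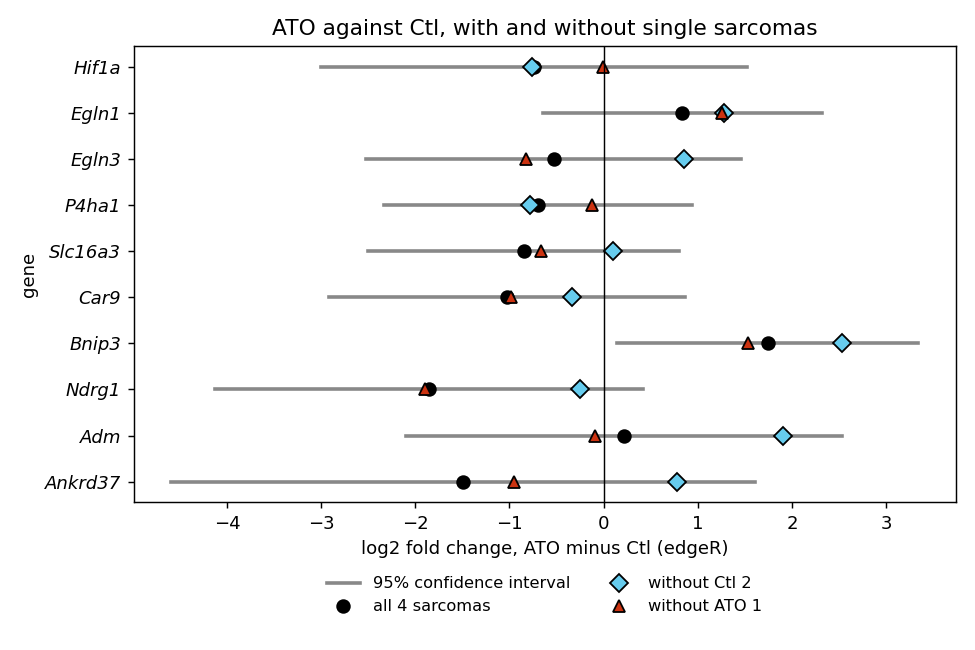
Log2 fold change (ATO minus Ctl, edgeR) of the 10 genes with its 95% confidence interval, and the value after leaving out Ctl 2 or ATO 1. The interval of Bnip3, from 0.15 to 3.34, is the one that does not include 0 before adjustment, and without Ctl 2 Egln3, Slc16a3 and Ankrd37 join Bnip3, Egln1 and Adm above 0.

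On log2(CPM + 1), the Ctl sarcomas differed from each other by more than the group means did in 6 of the 10 genes (54.4% of all genes), and the ATO sarcomas did so in 5 (57.6%). Over the 10 genes the median size of the difference was 1.40 within Ctl, 0.52 within ATO and 0.83 between the groups. The difference between the group means exceeded both within-group differences in 1 of the 10 genes (Bnip3), against 26% of all genes tested. Ctl 2 was above Ctl 1 in 8 genes (51.2% of all genes) and by more than 2-fold in 6 (13.7%), namely Ndrg1, Bnip3, Adm, Egln3, Ankrd37 and Slc16a3. Car9 came to a difference of 0.96 on this log2(CPM + 1) scale, while its ratio of Ctl 2 to Ctl 1 in CPM alone was 2.24. Over all genes tested, the median size was 0.51 within Ctl, 0.54 within ATO and 0.45 between the groups. By CPM, Ctl 2 was the highest of the 4 sarcomas in 6 genes (23.7% of all genes), and at least 2-fold above each of the other sarcomas in 4 (Car9, Ndrg1, Ankrd37 and Slc16a3; 4.92%). Hif1a and P4ha1 were the exceptions, with Ctl 2 to Ctl 1 ratios of 0.980 and 0.893. In these 2 genes it was the ATO group that was spread out, with ATO 2 above ATO 1 by 5.25-fold and 3.02-fold. Ndrg1 and Car9, in contrast, differed by less than 1.1-fold between the ATO sarcomas. Such ratios compare 2 libraries and not the conditions, and the 2-fold limit was chosen after the values were seen.

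**Figure D4:**
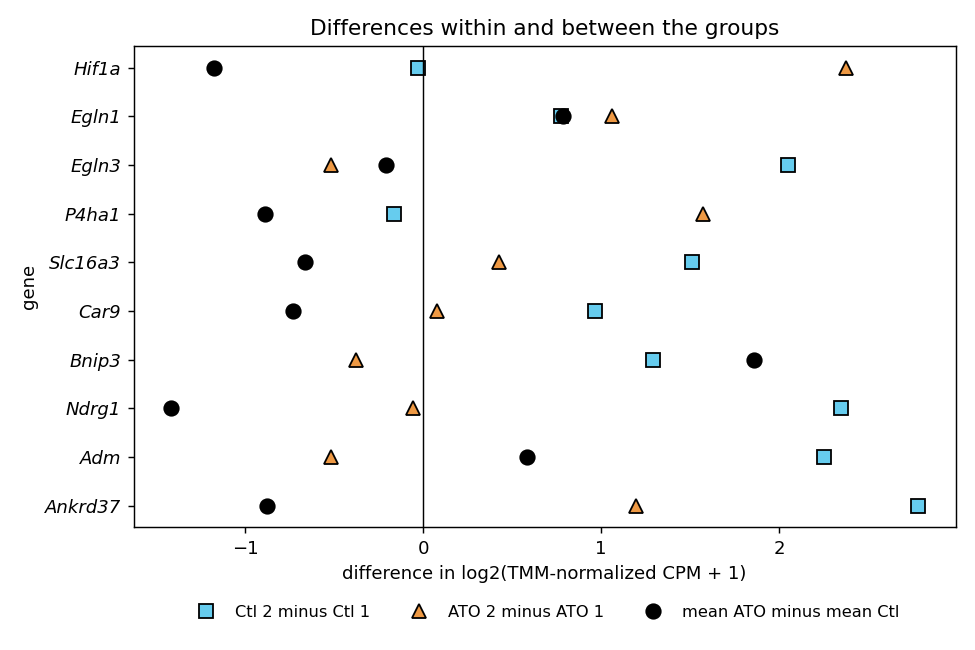
Differences in log2(TMM-normalized CPM + 1) for each of the 10 genes: Ctl 2 minus Ctl 1, ATO 2 minus ATO 1, and the mean of ATO minus the mean of Ctl. Squares lie right of 0 for 8 genes, up to 2.78 for Ankrd37, and the black circle lies farther from 0 than both other symbols for Bnip3 alone.

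Levels per gene length also changed order from sarcoma to sarcoma. By FPKM, Hif1a was the first of the 10 genes in Ctl 1, Ndrg1 in Ctl 2, and Bnip3 in both ATO sarcomas. Summed over the 9 genes other than Hif1a, FPKM was 141 in Ctl 1 and 392 in Ctl 2, against 265 in ATO 1 and 223 in ATO 2, so that the ATO sarcomas lay between the Ctl sarcomas. In ATO 1 and ATO 2, Bnip3 gave more of this sum than any other gene. In Ctl 1 Ankrd37 and Adm stood at percentiles 36.2 and 44.9 of the FPKM of all genes tested, and in Ctl 2 at percentiles 83.7 and 83.0.

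A list of 16 further genes of oxygen sensing (HIF subunits, hydroxylases, the von Hippel-Lindau complex and cofactors) was read beside the 10 genes. Of these, 9 had a higher (49.2% of all genes) and 7 a lower fitted level (50.8%) in ATO. In edgeR, 0 of the 16 passed the adjusted threshold and 0 had an unadjusted p under 0.05 (8.51% of all genes). Their median log2 fold change was 0.027, close to that of all genes. Epas1, which encodes HIF-2 alpha and is abundant in endothelial cells and fat, had 18.36 and 33.76 FPKM in Ctl and 30.08 and 92.32 in ATO (log2 fold change 1.59, SE 0.81, adjusted p 0.639 by edgeR). The ratio of Hif1a to Epas1 within a sarcoma was 3.87 in Ctl 1 and 2.09 in Ctl 2 against 0.414 in ATO 1 and 0.576 in ATO 2. Hif3a had 4.96 FPKM in ATO 1 and between 0.08 and 0.52 elsewhere. Arnt, the partner of the alpha subunits, had 25.24 and 9.11 FPKM in Ctl and 15.41 and 8.95 in ATO, and Vhl ranged from 8.2 to 12.35 FPKM. Arnt2 was low throughout, between 0.24 and 0.69 FPKM.

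Among 26 further HIF targets, 12 had a higher (49.2% of all genes) and 14 a lower fitted level (50.8%) in ATO. Their median log2 fold change was -0.069, and 0 passed the adjusted threshold in edgeR with the filter. An unadjusted p under 0.05 was found for 4 higher genes (5.44% of all genes) and 2 lower genes (3.07%). The higher genes were Gbe1, the glycogen branching enzyme (log2 fold change 3.11, SE 0.68), Hk2, the hexokinase of muscle and fat (2.91, SE 1.00), Aldoa, the aldolase abundant in muscle (2.55, SE 0.79), and Pfkfb3, an activator of glycolysis (1.68, SE 0.60). Their adjusted p by edgeR was 0.570 each, while Aldoa (0.0037) and Gbe1 (0.0039) passed by DESeq2, with adjusted p values of up to 0.881 and 0.872 in the other alternatives. Muscle and adipocyte markers were higher in the same sarcomas, and their part in these values was not tested. The lower genes were P4ha2, given above, and Plod2, a lysyl hydroxylase of collagen, with 19.21 and 17.01 FPKM in Ctl and 7.34 and 4.73 in ATO (log2 fold change -1.33, SE 0.37, adjusted p 0.570 by edgeR). Without Ctl 2 the median of these 26 targets was 0.60. By CPM, 10 of the 26 targets were highest in Ctl 2 (4071 of all 17188 genes tested) and 10 in ATO 2 (4388 of 17188). Slc2a1, the glucose transporter GLUT1, was among the first, at 97.19 FPKM against 19.84 in Ctl 1, 5.35 in ATO 1 and 24.82 in ATO 2. Vegfa had 52.5 and 36.87 FPKM in Ctl and 34.97 and 69.4 in ATO.

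**Figure D5:**
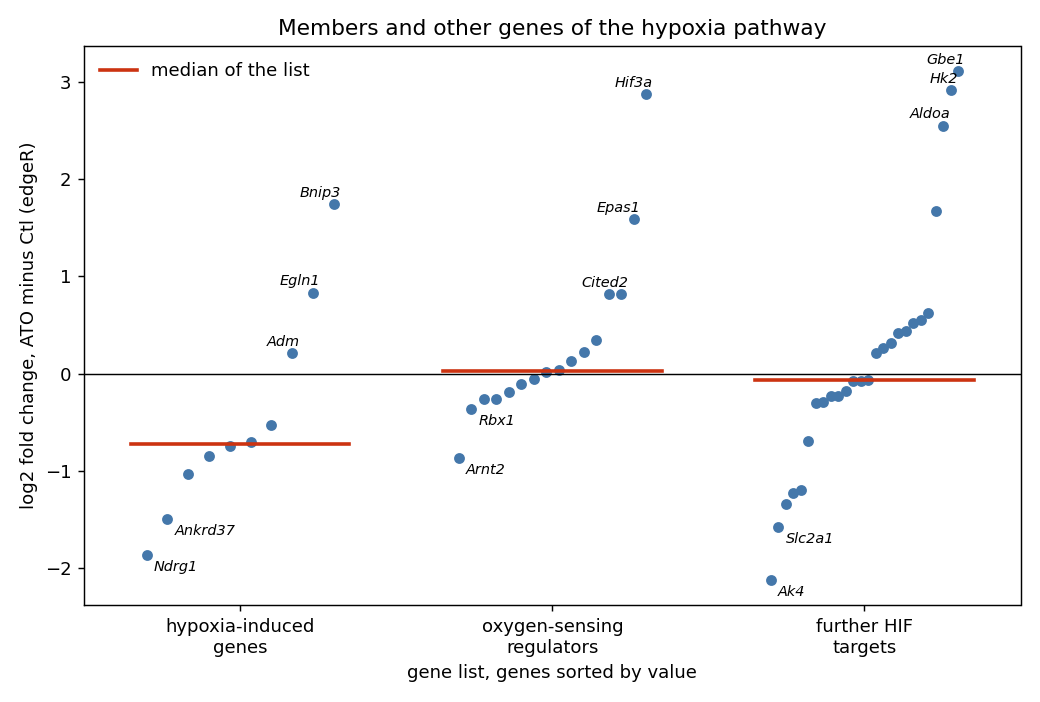
Log2 fold change (ATO minus Ctl, edgeR) of each of the 10 hypoxia-induced genes, 16 oxygen-sensing regulators and 26 further HIF targets, sorted within each list, with the median of the list as a red line. The medians are -0.72, 0.027 and -0.069, and the targets range from -2.12 to 3.11.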

How the data were processed

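RNA-seq of 4 sarcomas was analysed, and the labelled treatment set the groups. Reads had been processed before deposit: the authors trimmed them with cutadapt 1.9.1, aligned them with HISAT2 2.0.1 and made raw read counts per gene with HTSeq, which they deposited without normalization, and, per the labels, used FastQC 0.10.1. The authors also deposited FPKM, and the count divided by exonic gene size and total count gave this FPKM to within 0.006 for 100% of values. Strand setting and handling of multi-mapped reads are not given in the sources used here. The labels name GRCm38, but 1472 of 52073 shared genes have the position of GENCODE M21 (GRCm38) in the table, so M21 was used for positions, matched by gene identifier. Promoters are those of RefSeq on GRCm38.p6.

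The test was that of edgeR 4.0.16 (R 4.3.3) on the counts (filter by filterByExpr, TMM factors, trended dispersion, quasi-likelihood F-test, all 4 sarcomas), with Benjamini-Hochberg adjustment over all genes and a threshold of 0.05. SE is the size of the log2 fold change over the root of F. The biological coefficient of variation was 62.5%. DESeq2 1.42.0, 2 other scalings in edgeR, a fit without mitochondrial genes, 2 filters, a replicate block and leaving out each sarcoma were alternatives. Levels and figures used Python 3.11.15. The fit was checked on simulated counts. A pseudocount of 1 was added to CPM for log2 differences. Aldoa has 2 entries in the table, and ENSMUSG00000030695 was used. With 2 sarcomas a group, no exact test can go below 0.333, so within-sarcoma ratios were not tested. Libraries of a group are separate samples by their labels, and p-values measure only the spread between them. Members and lists were chosen with earlier results of these data known. All 10 genes are named, and of the lists the paralogs or partners that share a function with the gene described, and those with an unadjusted p under 0.05. Genes named besides for their pattern were chosen after their values were seen.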

Additional observations from a re-analysis of the deposited data

How the results depend on the processing

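0 of the 10 hypoxia-induced genes passed the threshold in each of the 11 alternatives. The number of genes past it over the whole table was 0 in edgeR, 754 in DESeq2 (595 higher, 159 lower) and 541 in edgeR without a filter (454 higher, 87 lower), and 0 with each sarcoma left out. The cause was not tested. Of the 37 genes that the rule on named genes covers, 25 kept their direction in every alternative in which they were tested (Arnt2 was not tested with the filter on mean FPKM). Scaling to total counts alone moved the median of all genes from -0.016 to -0.28, Adm to -0.031 and the median of the oxygen-sensing regulators to -0.25, and this median was -0.00072 without a filter. Both ATO sarcomas were below both Ctl sarcomas in 5 of the 10 genes by FPKM (29.6% of all genes). This number was 3 with TMM (20.2%) and 2 with the size factors of DESeq2 (19.4%).

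With each sarcoma left out, the number of the 10 genes with a higher fitted level ranged from 2 to 6 and their median from -1.07 to 0.44, both upper values being those without Ctl 2. The median of the regulators ranged from -0.027 to 0.30 and that of the further targets from -0.23 to 0.60. The fold changes ranged from -0.54 to 1.91 for Adm, -1.22 to 0.85 for Egln3, -2.37 to 0.78 for Ankrd37, -1.42 to 0.10 for Slc16a3, -2.27 to 0.97 for P4ha3, -2.07 to 1.00 for Calcrl, -1.96 to 1.33 for Ramp2, -0.68 to 1.02 for Bnip3l, -0.48 to 3.83 for Car2, -2.41 to 1.71 for Car12, -1.84 to 3.86 for Hif3a and -0.82 to 0.67 for Arnt. A lone sarcoma was there assumed to vary like the other group.

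Both groups carry replicate numbers 1 and 2, yet no source says that these pair the sarcomas, and the deviations of same-numbered sarcomas correlated at -0.0080 over 17188 genes. With the replicate block 0 genes passed, the median of the further targets turned to 0.17 and Bnip3l to 0.15, and the median of the 10 genes was -0.79. The lowest count of a hypoxia-induced gene in a sarcoma was 34, and there are 2 sarcomas a group.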

Other observations

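Of 19 paralogs and partners of the 10 genes, 10 had higher fitted levels in ATO (49.2% of all genes) and 9 lower (50.8%). Their median log2 fold change was 0.35, and 0 passed the adjusted threshold in edgeR with the filter. An unadjusted edgeR p under 0.05 was found for 2 higher genes (5.44% of all genes) and 3 lower genes (3.07%). Some paralogs of the hypoxia-induced genes differed between the groups by more than any of the 10 genes themselves, though none passed in edgeR with the filter. Ndrg2, a paralog of Ndrg1 that is expressed in muscle, fat and brain, had 5.85 and 13.51 FPKM in Ctl and 243.55 and 67.33 in ATO (log2 fold change 4.21, SE 0.87, edgeR adjusted p 0.570), while Ndrg4, a paralog of heart and brain, had 6.08 and 6.87 in Ctl and 2.34 and 1.77 in ATO (log2 fold change -1.39, SE 0.42, edgeR adjusted p 0.570). Ndrg3 did not separate the groups, with 9 and 3.96 FPKM in Ctl and 6.89 and 12.89 in ATO. Among carbonic anhydrases, Car14, a membrane-bound enzyme like Car9, had 0.14 and 0.26 FPKM in Ctl and 10.37 and 5.21 in ATO (log2 fold change 5.50, SE 0.74, edgeR adjusted p 0.570). By DESeq2 the adjusted p of Car14 was 5.9e-09 and that of Ndrg2 was 7.2e-05, and over the other alternatives it ranged from 0.0039 (no filter) to 0.872 (without Ctl 1) for Car14 and from 0.0090 to 0.872 for Ndrg2, under the same settings. Of the genes named in the lists, Aldoa, Gbe1, Ramp3 and Car4 were also past the threshold by DESeq2, at adjusted p values between 0.0037 and 0.048, and Gbe1 was without a filter in edgeR (adjusted p 0.018). Car4, of capillary endothelium and other tissues, had 0.03 and 1.47 FPKM in Ctl and 4.57 and 21.9 in ATO, and Car2 reached 191.71 in ATO 1 against 7.68 to 22.58 elsewhere. Car12, like Car9 a target of HIF in tumors, was between 0.11 and 1.37 FPKM in all 4 sarcomas. Muscle and adipocyte markers were, like Ndrg2, Car14 and Car4, higher in both ATO sarcomas than in either Ctl sarcoma. Within the ATO group, the muscle markers, Ndrg2 and Car14 were higher in ATO 1, and the adipocyte markers and Car4 in ATO 2. The part of these cell types was not tested.

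Adm and Egln3 shared one order of the 4 sarcomas by CPM, from Ctl 2 through ATO 1 and ATO 2 to Ctl 1. Of the 26 further HIF targets, Pfkfb4, Bnip3l, Kdm3a and Angptl4 had this order too, as did 3.88% of all genes tested. The summed FPKM of the erythroid markers had the same order. The order was singled out after the values were seen, and with 4 sarcomas it was not tested.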
